A study of Mus musculus with 13 samples.

Results

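Aldehyde oxidases and aldehyde dehydrogenases convert reactive aldehydes to carboxylic acids, and 10 of their genes are described here: Aox1, Aox3, Aldh1a1, Aldh1a2, Aldh1a3, Aldh1a7, Aldh1l1, Aldh2, Aldh3a1 and Aldh3a2. They are 10 of 20270 genes in the deposited tables and 10 of the 25 genes that make up the family in these tables. The members were chosen by measured values of this dataset, because Aox3 and Aldh2 were lower after bleomycin, so every comparison of a member with control lungs is given as a description, with no p, and counts past the threshold used for other genes are descriptions too. All 10 passed the filter on low counts.

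The data are bulk RNA sequencing of 13 samples of the lower right lung lobe of mice. The bleomycin samples were taken 14 days after a single oropharyngeal dose, and no day is given for the control samples. The 4 control samples came from wild-type mice that received saline, the 5 WT bleomycin samples from wild-type mice that received bleomycin at 1 U/kg, and the 4 CB1R KO bleomycin samples from mice that carried a homozygous deletion of the cannabinoid receptor CB1R and received the same bleomycin. Wild-type mice were male C57BL/6J animals of 13 weeks, and the knockout was on the same strain background, with no separate age given for it. No CB1R KO mouse without bleomycin was analysed here, so a difference between the KO and WT bleomycin groups cannot be told apart from a difference that the genotypes had before dosing.

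Aldehyde oxidases are cytosolic enzymes that carry a molybdenum cofactor, flavin and iron-sulfur clusters, use molecular oxygen and release hydrogen peroxide or superoxide. They are known for oxidizing drugs and other nitrogen heterocycles as well as aldehydes. Aldehyde dehydrogenases use NAD or NADP instead, and in the lung they clear acetaldehyde and the aldehydes that lipid peroxidation leaves behind. A few of them act in other pathways, since the ALDH1A enzymes make retinoic acid from retinaldehyde and Aldh1l1 takes one-carbon units out of the folate pool.

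The promoters of the 2 aldehyde oxidase genes, neighbours on chromosome 1, are shown because Aox1 and Aox3 had log2 fold changes of -0.64 and -1.71 after bleomycin. The promoters of Aldh1a1 and Aldh1a7 are shown because these paralogs have partly identical transcripts. Each run holds 250 bases before and 50 bases after an annotated start, 5′ to 3′ on the strand of the gene, from RefSeq on build GRCm38.p6. Capitals mark matches, on either strand, to GCGTG (the xenobiotic response element core), CCAAT (the CCAAT box) and TATAAA (the TATA box).

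Aox1, chr1:58029719-58030018, plus strand: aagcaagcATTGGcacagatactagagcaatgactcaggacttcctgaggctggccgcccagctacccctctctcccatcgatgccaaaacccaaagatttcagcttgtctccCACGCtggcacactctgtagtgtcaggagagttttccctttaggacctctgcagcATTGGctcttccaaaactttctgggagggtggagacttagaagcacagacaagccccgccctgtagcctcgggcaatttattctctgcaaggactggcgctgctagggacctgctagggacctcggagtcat

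Aox3, chr1:58112886-58113185, plus strand: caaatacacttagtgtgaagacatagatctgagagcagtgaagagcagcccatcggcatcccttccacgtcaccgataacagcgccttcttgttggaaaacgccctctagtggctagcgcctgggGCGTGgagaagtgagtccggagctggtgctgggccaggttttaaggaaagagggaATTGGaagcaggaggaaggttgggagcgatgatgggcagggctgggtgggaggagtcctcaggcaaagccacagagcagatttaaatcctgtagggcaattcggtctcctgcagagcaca

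Aldh1a1, chr19:20601718-20602017, plus strand: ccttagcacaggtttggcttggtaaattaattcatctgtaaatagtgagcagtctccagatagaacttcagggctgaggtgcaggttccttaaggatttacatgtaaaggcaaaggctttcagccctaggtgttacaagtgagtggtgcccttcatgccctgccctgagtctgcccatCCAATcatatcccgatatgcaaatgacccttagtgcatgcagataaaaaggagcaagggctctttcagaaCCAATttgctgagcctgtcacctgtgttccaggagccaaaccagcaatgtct

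Aldh1a7, chr19:20727507-20727806, minus strand: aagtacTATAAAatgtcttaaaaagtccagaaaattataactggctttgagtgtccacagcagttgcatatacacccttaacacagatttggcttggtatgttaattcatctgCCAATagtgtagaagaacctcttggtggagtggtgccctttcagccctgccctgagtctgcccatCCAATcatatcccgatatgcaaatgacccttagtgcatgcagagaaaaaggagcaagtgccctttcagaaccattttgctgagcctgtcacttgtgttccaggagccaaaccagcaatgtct

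Both aldehyde oxidase promoters held 1 GCGTG core, at 137 bases before the start in Aox1 (as CACGC on the strand shown) and 125 bases before it in Aox3. The same core occurred in 32.4% of all 32851 RefSeq promoters of this length. CCAAT occurred in 37.4% of them and was found, as ATTGG, at 2 places in Aox1 and 1 in Aox3. The Aldh1a1 and Aldh1a7 promoters matched at 115 of their last 120 positions, or 95.8%, with a longest shared run of 65 bases. Over the whole 300 positions 177 were identical. Both promoters held 2 CCAAT boxes, of which 1 lay 72 bases before the start in both, and the other lay 2 bases before it in Aldh1a1 and 137 bases before it in Aldh1a7. Aldh1a1 has a further annotated start upstream, whose promoter held no match to any motif searched and is not shown. The antioxidant response element core TGACNNNGC, present in 12.4% of all promoters, was not in any of these 4 windows. TATAAA, present in 13.6% of promoters, was found in the Aldh1a7 window only, 244 bases before the start. RefSeq promoters were matched for 7 of the 10 members, and those of Aldh2, Aldh1a3 and Aldh3a1 are not shown.

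Levels between genes are compared in TPM, which scales reads by transcript length and library size. In control lungs the highest mean level was that of Aldh2, the mitochondrial enzyme that oxidizes acetaldehyde, at 1203 TPM. Aldh1a1 followed at 986 TPM, and the libraries of these 2 genes overlapped. Aldh1a7, Aldh3a2 and Aox3 came next at 79.2, 72.9 and 69.9 TPM, and neighbours in this order overlapped. Aox1 stood alone at 24.2 TPM. Aldh1a2, Aldh3a1 and Aldh1l1 had 16.7, 16.5 and 11.5 TPM with overlapping neighbours, and Aldh1a3 was the lowest at 1.43 TPM. The order changed little after bleomycin. In WT bleomycin lungs Aox3, at 21.9 TPM, overlapped Aldh1a2 at 19.1 TPM, whereas in control lungs all its libraries were above those of Aldh1a2.

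The 25 family genes together reached 2736 ± 268 TPM in control lungs (SD, n = 4), 1598 ± 152 TPM in WT bleomycin lungs (SD, n = 5) and 1801 ± 57.8 TPM in CB1R KO bleomycin lungs (SD, n = 4). Aldh1a1 and Aldh2 alone made up 79.9%, 72.3% and 74.3% of this sum in the same order of groups. The 10 members made up 90.6%, 85.0% and 86.6%. The lowest control library, replicate 3, had 2393 TPM, above the highest WT bleomycin library at 1778 TPM and the highest CB1R KO bleomycin library at 1861 TPM. These sums hold Aldh2, on which the members were chosen, and are given without a test.

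**Figure D1:**
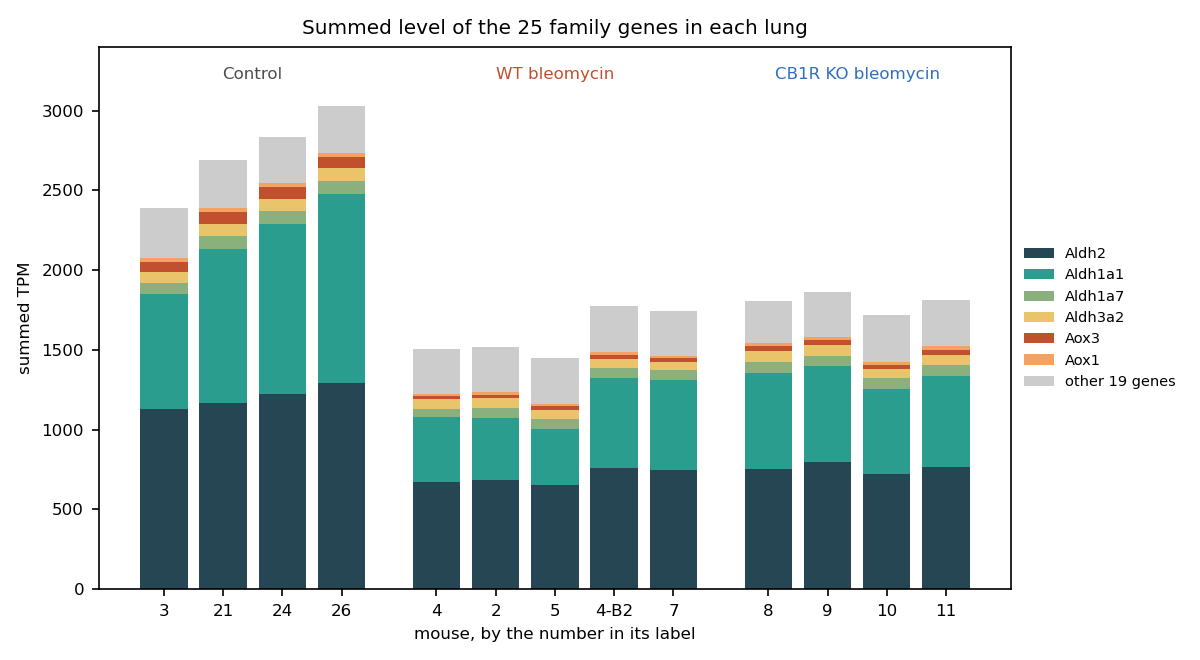
Stacked bars give the summed TPM of the 25 family genes in each of the 13 samples, split into Aldh2, Aldh1a1, Aldh1a7, Aldh3a2, Aox3, Aox1 and the other 19 genes, with the number of the label under each bar. Control bars reach 2393 to 3029 TPM and all stand above the bleomycin bars, and most of each bar is Aldh2 and Aldh1a1.

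Values of 1 gene across libraries are given as CPM, library-scaled counts after TMM normalization. A gene was called when the quasi-likelihood test of edgeR gave it an adjusted p under 0.05 over the 15315 genes tested. In the comparison of WT bleomycin with control 48.9% of all tested genes were called, 23.9% being called lower, and the 2 groups did not overlap in 40.3% of genes. Of the 10 members 7 met the same threshold, 6 of them lower and 1 higher, and these 7 were also the members whose groups did not overlap. Over all 10 members the median log2 fold change was -0.53, beside -0.01 for all tested genes. Since the choice of members used this contrast, nothing is read from these counts. In bulk tissue a lower value from fewer cells of a type cannot be told apart from less RNA per cell.

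Aox3, the more abundant of the 2 aldehyde oxidases in the lung, had 183, 232, 233 and 228 CPM in control replicates 3, 21, 24 and 26. The 5 WT bleomycin lungs had 61.7, 69.8, 70.5, 70.8 and 61.2 CPM in replicates 4, 2, 5, 4-B2 and 7. The 4 CB1R KO bleomycin lungs had 91.6, 93.7, 77.2 and 91.1 CPM in replicates 8, 9, 10 and 11. The 3 groups did not overlap, with WT bleomycin lungs lowest and CB1R KO bleomycin lungs between the others. The log2 fold change against control was -1.71 ± 0.08 (SE) in WT bleomycin lungs, or 0.305 times the control level, and -1.31 ± 0.09 in CB1R KO bleomycin lungs, or 0.404 times.

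Aox1, which encodes the other aldehyde oxidase, had 74.2, 76.6, 69.7 and 72.9 CPM in the control replicates, in the order used for Aox3. WT bleomycin lungs had 42.3, 41.9, 43.6, 57.4 and 50.8 CPM, and CB1R KO bleomycin lungs had 47.6, 48.7, 54.4 and 59.2 CPM. All 9 bleomycin lungs were below all controls, and the bleomycin groups overlapped. The log2 fold change against control was -0.64 ± 0.10 (SE) in WT bleomycin lungs and -0.48 ± 0.10 in CB1R KO bleomycin lungs. The ratio of Aox3 to Aox1 in TPM was 2.90 ± 0.36 in control (SD, n = 4), 1.39 ± 0.21 in WT bleomycin (SD, n = 5) and 1.66 ± 0.26 in CB1R KO bleomycin lungs (SD, n = 4). The remaining aldehyde oxidase genes were close to absent. Aox2 had between 0 and 6 estimated counts per library and Aox4 between 0 and 4.22, and neither entered the tests.

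Aldh2 had 903, 967, 1012 and 1109 CPM in control replicates 3, 21, 24 and 26. WT bleomycin replicates 4, 2, 5, 4-B2 and 7 had 499, 521, 529, 616 and 614 CPM, and CB1R KO bleomycin replicates 8, 9, 10 and 11 had 574, 628, 556 and 564 CPM. Every bleomycin lung was below every control lung, and the KO lungs lay among the WT bleomycin lungs apart from replicate 9, which was just above them. Against control, its log2 fold change was -0.84 ± 0.08 (SE) in WT bleomycin lungs and -0.78 ± 0.09 in CB1R KO bleomycin lungs.

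Aldh1a1, which makes retinoic acid and also oxidizes lipid aldehydes, had 929, 1279, 1404 and 1608 CPM in the control lungs. In WT bleomycin lungs it had 508, 495, 459, 756 and 746 CPM, and in CB1R KO bleomycin lungs 742, 754, 672 and 734 CPM. Both bleomycin groups were below the controls, and WT bleomycin lungs fell into a lower set of 3 and a higher pair that reached the KO values. That pair, replicates 4-B2 and 7, and control replicate 26 are the 3 libraries whose titles are spelled with capital letters, and they were also the highest of their groups for Aldh2 (4-B2 and 7 at 616 and 614 CPM, control 26 at 1109 CPM). What the spelling marks is not stated, and all CB1R KO titles are in lower case. Against control, Aldh1a1 had a log2 fold change of -1.14 ± 0.17 (SE) in WT bleomycin lungs and -0.85 ± 0.18 in CB1R KO bleomycin lungs.

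Aldh1a7, a rodent paralog of Aldh1a1 that is not known to make retinoic acid, had 88.9, 110, 113 and 112 CPM in control lungs. WT bleomycin lungs had 66.4, 75.4, 82.9, 88.8 and 75.6 CPM, and CB1R KO bleomycin lungs 83.2, 83.5, 85.7 and 85.3 CPM. The groups were separated from control by very little, since the highest WT bleomycin lung nearly reached control replicate 3. Aldh1a7 had a log2 fold change against control of -0.45 ± 0.08 (SE) in WT bleomycin lungs and -0.33 ± 0.09 in CB1R KO bleomycin lungs. Of the 31-base words in the Aldh1a7 transcript 13.8% also occur in Aldh1a1, and 11.3% of those in Aldh1a1 occur in Aldh1a7, so reads can be divided between these genes with error. With both genes summed the log2 fold change against control was -1.07 ± 0.16 in WT bleomycin lungs and -0.80 ± 0.17 in CB1R KO bleomycin lungs. Most of this sum is Aldh1a1, with a control mean of 20950 estimated counts beside 1709 for Aldh1a7, so it says little about Aldh1a7. Aox1 and Aox3 shared no such word with each other.

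Aldh3a2, the microsomal enzyme that oxidizes fatty aldehydes, had 134 to 156 CPM in control lungs with a median of 144. WT bleomycin lungs had 111, 113, 115, 108 and 109 CPM, and CB1R KO bleomycin lungs 130, 131, 106 and 123 CPM. Every bleomycin lung lay below the controls, and 3 of 4 KO lungs lay above every WT bleomycin lung. The log2 fold change against control was -0.38 ± 0.07 (SE) in WT bleomycin lungs and -0.24 ± 0.07 in CB1R KO bleomycin lungs. Aldh3a1, known from the cornea and for its induction by aryl hydrocarbon receptor ligands, varied far more. It had 15.1 to 23.8 CPM in control lungs, 9.06, 11.2, 9.69, 17.9 and 10.2 CPM in WT bleomycin lungs and 6.74, 11.8, 21.2 and 20.9 CPM in CB1R KO bleomycin lungs. Its groups overlapped in all 3 comparisons, with a log2 fold change against control of -0.62 ± 0.29 in WT bleomycin lungs and -0.22 ± 0.30 in CB1R KO bleomycin lungs.

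Aldh1a3 and Aldh1a2 encode the other retinaldehyde dehydrogenases. Aldh1a3 had 1.72, 2.64, 2.18 and 4.06 CPM in control lungs. It had 4.94, 6.86, 7.56, 6.99 and 12.2 CPM in WT bleomycin lungs and 3.34, 3.50, 3.23 and 2.12 CPM in CB1R KO bleomycin lungs. WT bleomycin lungs were all above both other groups, which overlapped. The log2 fold change against control was 1.54 ± 0.29 (SE) in WT bleomycin lungs and 0.18 ± 0.31 in CB1R KO bleomycin lungs. These are low counts, between 29.1 and 197 estimated counts per library.

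Aldh1a2, known for making the retinoic acid of the embryo and of mesothelial cells, had 23.4 to 25.3 CPM in control lungs. WT bleomycin lungs had 23.4, 28.2, 33.0, 23.5 and 29.8 CPM, and CB1R KO bleomycin lungs 17.7, 21.8, 24.4 and 17.7 CPM. The groups overlapped in every comparison, with KO replicate 10 inside the WT bleomycin range and the other 3 KO lungs below it and below every control. Against control, Aldh1a2 had a log2 fold change of 0.16 ± 0.12 (SE) in WT bleomycin lungs and -0.28 ± 0.12 in CB1R KO bleomycin lungs. Summed TPM of Aldh1a1, Aldh1a2 and Aldh1a3 were 1004 ± 195 in control (SD, n = 4), 480 ± 101 in WT bleomycin (SD, n = 5) and 595 ± 29.4 in CB1R KO bleomycin lungs (SD, n = 4). The ratio of Aldh1a1 to Aldh1a3 in TPM was between 561 and 929 in control, 81.8 and 156 in WT bleomycin and 280.0 and 474 in CB1R KO bleomycin lungs, with no overlap between groups.

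Aldh1l1, the cytosolic formyltetrahydrofolate dehydrogenase, was level across the groups. It had 21.1 to 27.8 CPM in control, 24.4 to 27.8 CPM in WT bleomycin and 20.9 to 27.9 CPM in CB1R KO bleomycin lungs. Its log2 fold change against control was 0.12 ± 0.10 (SE) in WT bleomycin lungs, with a 95% interval of -0.09 to 0.33.

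**Figure D2:**
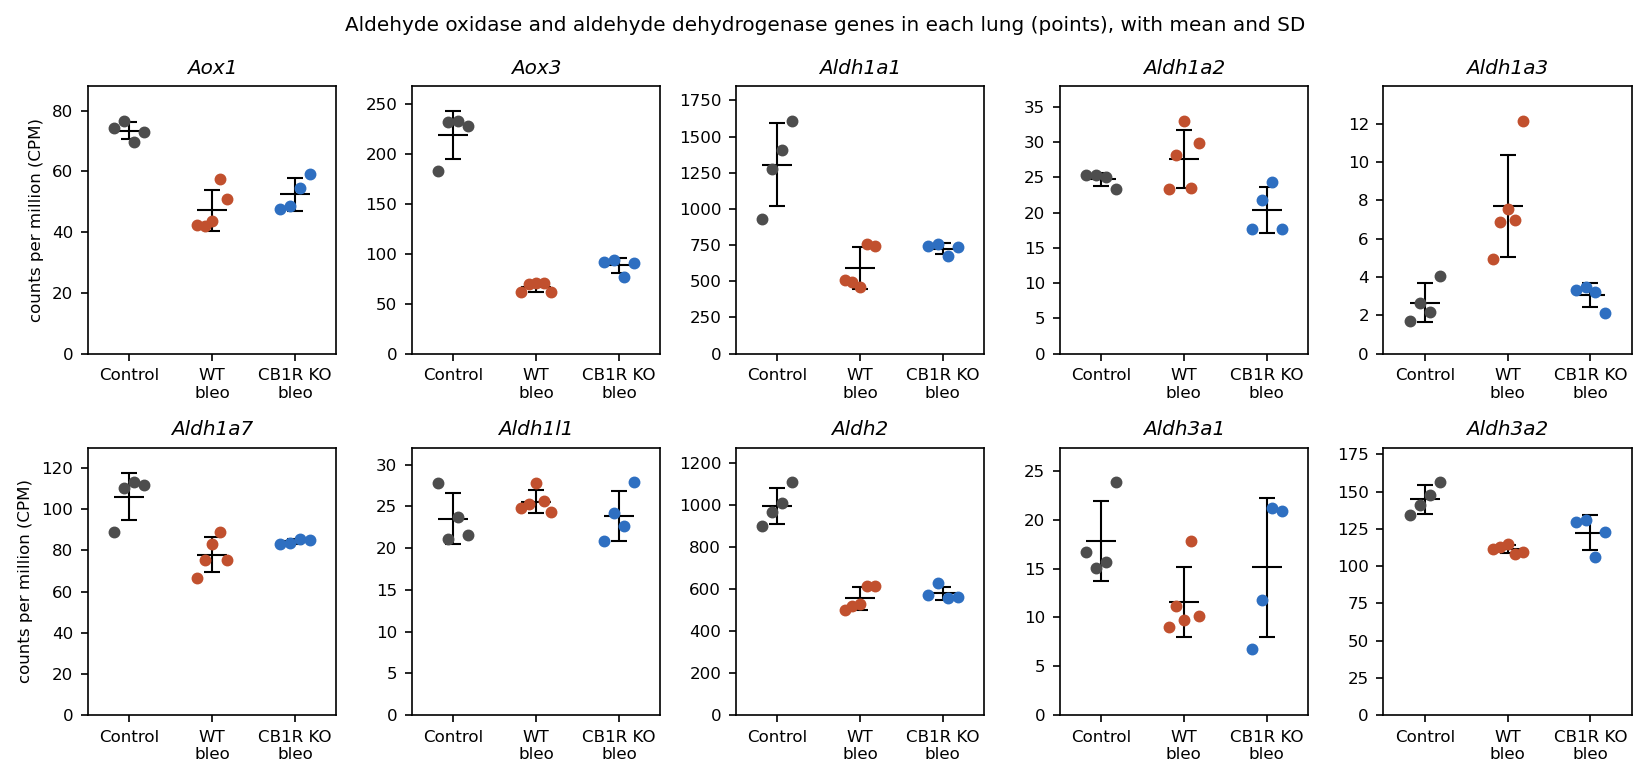
Each panel shows 1 member in the 13 samples, in CPM on a linear axis from 0, with a point per sample, a bar at the mean and whiskers of 1 SD for control (n = 4), WT bleomycin (n = 5) and CB1R KO bleomycin (n = 4). Aox3 shows 3 separate groups (183 to 233, 61.2 to 70.8 and 77.2 to 93.7 CPM), and Aldh1a3 is highest in the WT bleomycin lungs (4.94 to 12.2 CPM).

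The comparison of CB1R KO with WT bleomycin asks whether the receptor's absence alters the transcriptome of the injured lung. It was tested for the members with a limit, because it shares the WT bleomycin libraries with the contrast on which they were chosen. Aox3 and Aldh2 were picked for low values in those libraries, which favours a higher value in KO lungs. The p and intervals of Aox3 and Aldh2 are therefore not free of the choice, nor is the count of members called. Aox3 was 1.32 times higher and Aldh1a3 was 0.389 times the WT bleomycin level, and these 2 of 10 members were called. Across all tested genes 0.979% were called (150 genes) and the groups did not overlap in 5.6%. The same 2 members were the only ones of the 10 whose groups did not overlap. The median log2 fold change of the 10 members was 0.13, beside 0.00 for all tested genes.

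Aox3 rose by 0.40 ± 0.08 on the log2 scale (SE, 95% interval 0.22 to 0.59, adjusted p = 0.039 in edgeR's quasi-likelihood test), with 4 of 4 KO lungs above all WT bleomycin lungs. Aldh1a3 fell by 1.36 ± 0.28 on the log2 scale (SE, adjusted p = 0.038 in the same test), with 4 of 4 KO lungs below all WT bleomycin lungs. Both calls sit close to the threshold. Aox3 lost its call in 12 of 24 alternative analyses and Aldh1a3 in 13 of 24, with adjusted p values up to 0.236 and 0.135, among them the leaving out of CB1R KO replicate 8 (0.131 and 0.108), 9 (0.144 and 0.105) or 11 (0.0893 and 0.0942) and the restriction to lower-case titles (0.236 and 0.135). The calls of both were also lost without control replicate 21 or 24 or without WT bleomycin replicate 2, 5, 4-B2 or 7, at adjusted p up to 0.105. Aox3 alone lost it without WT bleomycin replicate 4 (0.0539), and Aldh1a3 alone in both limma analyses (0.0503 and 0.0682). The direction held in all 24, with log2 fold changes of 0.37 to 0.46 for Aox3 and -1.49 to -0.83 for Aldh1a3. Since the groups did not overlap, leaving out 1 library could hardly have reversed it.

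The other 8 members did not pass the test. Aldh1a2 came nearest, with a log2 fold change of -0.44 ± 0.12 (SE, adjusted p = 0.083 in edgeR's quasi-likelihood test). DESeq2 called it (adjusted p = 0.020), and so did edgeR without CB1R KO replicate 10 (-0.53, adjusted p = 0.026). For Aldh2 the difference was 0.06 ± 0.08 with a 95% interval of -0.11 to 0.24 on the log2 scale, and for Aox1 it was 0.16 ± 0.10 with an interval of -0.05 to 0.36. Aldh3a2 had 0.14 ± 0.07 (interval -0.0049 to 0.28), Aldh1a7 0.12 ± 0.09 (interval -0.06 to 0.30) and Aldh1l1 -0.09 ± 0.10 (interval -0.30 to 0.12). The intervals of Aldh1a1 (-0.06 to 0.65) and Aldh3a1 (-0.22 to 1.03) were the widest of the 8. For Aldh1a1 the value depended on the libraries with capital letters in their titles. It was 0.29 ± 0.17 over all libraries, 0.54 ± 0.11 with the spelling as a term and 0.57 ± 0.12 over lower-case titles only, with adjusted p of 0.394, 0.0636 and 0.135 in edgeR's test.

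In the comparison of CB1R KO bleomycin with control 6 members were past the threshold, all lower, where 35.4% of all tested genes were called and 16.3% were called lower. The same 6, Aox1, Aox3, Aldh1a1, Aldh1a7, Aldh2 and Aldh3a2, were the members whose groups did not overlap, beside 33.5% of all tested genes. Their choice used the change with bleomycin, so nothing is read from this count, and this comparison shares its control lungs with that of WT bleomycin. The median log2 fold change of the 10 members was -0.31, beside -0.01 for all tested genes.

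**Figure D3:**
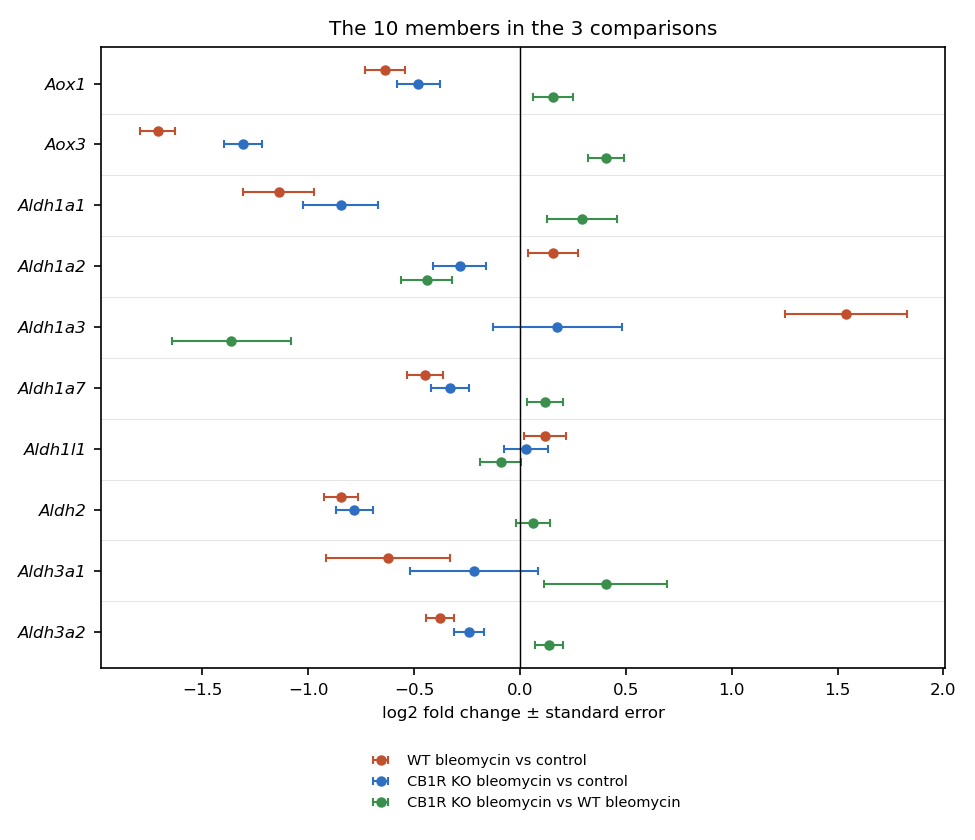
Points give the log2 fold change of each of the 10 members in the 3 comparisons and whiskers its standard error from the edgeR fit. Aox3 lies lowest against control (-1.71 and -1.31), Aldh1a3 is the only member far above 0 in WT bleomycin lungs (1.54), and the CB1R KO to WT bleomycin values of the other 8 members lie between -0.44 and 0.41.

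Markers of several lung cell types moved with the same groups. In WT bleomycin against control 6 of 6 alveolar fibroblast markers, 6 of 6 endothelial markers, 5 of 6 club cell markers and 5 of 6 type II cell markers were called lower, and 6 of 6 activated fibroblast markers were called higher. Among all tested genes 48.9% were called in this comparison and 23.9% were called lower. The ciliated, alveolar macrophage and type I lists below, with 2 of 6 called lower each, are near that share. Summed alveolar fibroblast markers had 4327 to 5119 CPM in control, 1603 to 2135 CPM in WT bleomycin and 1783 to 3134 CPM in CB1R KO bleomycin lungs, and the corresponding ranges were 18630 to 22100, 11600 to 13250 and 13480 to 21270 CPM for type II cells. Club cell markers summed to 18490 to 21440, 8493 to 13400 and 8892 to 10200 CPM, and endothelial markers to 3492 to 4157, 2230 to 2603 and 2514 to 2958 CPM. Activated fibroblast markers ran the other way, at 893 to 1228, 4818 to 7014 and 3387 to 5496 CPM. KO replicate 10 had the lowest KO sums for alveolar fibroblasts (1783 CPM) and type II cells (13480 CPM) and the highest for activated fibroblasts (5496 CPM). Its club cell sum (9578 CPM) lay among those of the other KO lungs. No marker of any list was at 0 in every library. Of 6 ciliated cell markers 2 were called lower, with sums of 510 to 557, 309 to 434 and 290 to 417 CPM. These 2 were Tppp3 (log2 fold change -1.21) and Tekt1 (-0.35), while Ccdc39 (-0.24), Dnah5 (-0.15), Rsph1 (-0.13) and Foxj1 (0.13) were not called. Such sums are weighted to the more abundant markers of a list. Of 6 alveolar macrophage markers 2 were called lower, with overlapping sums of 500.2 to 1736, 620 to 1038 and 530 to 1059 CPM. Of 6 type I cell markers 2 were called lower and 1 higher, with sums of 3458 to 3735, 2634 to 3215 and 2766 to 3609 CPM. Of 6 mesothelial markers 3 were called lower and 1 higher, and they summed to 203 to 274 CPM in control, 174 to 278 CPM in WT bleomycin and 169 to 231 CPM in CB1R KO bleomycin lungs.

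Between the bleomycin groups 3 of 6 type II markers (Sftpc, Sftpa1 and Lamp3) and 2 of 6 alveolar fibroblast markers (Inmt and Slc7a10) were called higher in CB1R KO lungs, beside 0.979% of all tested genes called in either direction. Their log2 fold changes ran from 0.51 (Lamp3) to 1.68 (Slc7a10), with adjusted p of 0.029 (Sftpc) to 0.042 (Lamp3) in edgeR's test. These calls sit close to the threshold, in a comparison where 1 to 653 genes were called with 1 library left out. Adipocyte markers, which can mark fat left on the lobe, summed to 42.7 to 157 CPM in control, 15.0 to 79.2 CPM in WT bleomycin and 36.1 to 148 CPM in CB1R KO bleomycin lungs. Hepatocyte markers, checked because the family is abundant in liver, summed to 1.01 to 2.70 CPM over all libraries. The part of these cell types in the values of the members was not tested.

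The 15 remaining genes complete the family, and 12 of them passed the count filter. They are what the choice of members left over, so they are no independent sample of it. Of these 12, 6 were called lower and 3 higher in WT bleomycin against control, where 48.9% of all tested genes were called and 23.9% were called lower. Their median log2 fold change was -0.18, beside -0.01 for all tested genes. Aldh6a1, the methylmalonate semialdehyde dehydrogenase of valine breakdown, fell to between 55.8 and 64.9 CPM from between 112 and 127 CPM in control (log2 fold change -0.99 ± 0.08, adjusted p = 4.34e-07 in edgeR's test). Aldh3b3 fell by 2.02 ± 0.69 on the log2 scale from a low level of 6.85 to 8.83 CPM (adjusted p = 0.0246), a call that DESeq2 did not make. Aldh5a1, the succinate semialdehyde dehydrogenase of GABA breakdown, fell by 0.43, Aldh9a1, which takes part in carnitine synthesis, by 0.28, Aldh4a1, which completes proline breakdown, by 0.22 and Aldh7a1, which acts in lysine breakdown, by 0.14.

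Aldh18a1, the enzyme that makes the precursor of proline from glutamate, rose to between 30.4 and 38.7 CPM in WT bleomycin lungs from between 14.1 and 18.1 CPM in control (log2 fold change 1.09 ± 0.12, adjusted p = 7.77e-06 in edgeR's test). Aldh1l2, the mitochondrial formyltetrahydrofolate dehydrogenase, rose by 0.97 ± 0.24 on the log2 scale, to between 4.37 and 5.99 CPM from between 1.73 and 3.16 CPM in control. Aldh16a1 rose by 0.27 ± 0.10. Neither limma analysis called Aldh4a1 or Aldh7a1, and limma on log2(TPM + 1) did not call Aldh16a1. Aldh1b1, Aldh3b1 and Aldh3b2 did not pass the test, and Aox2, Aox4 and Aldh8a1 were too low to be tested.

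In CB1R KO bleomycin lungs against control, 3 of the 12 were called, beside 35.4% of all tested genes. Aldh18a1 rose by 0.80 ± 0.13, Aldh6a1 fell by 0.76 ± 0.09 and Aldh5a1 fell by 0.44 ± 0.13 on the log2 scale. Only the call of Aldh6a1 was also made by both limma analyses. None of the 12 was called between CB1R KO and WT bleomycin by edgeR, and none by DESeq2 or by limma on log2(TPM + 1) or log2(TPM + 0.1), while 3 had an unadjusted p under 0.05 in edgeR. Aldh3b3 had 73.0, 48.0, 31.5 and 0 estimated counts in KO replicates 8, 9, 10 and 11, the 0 being in the deepest library, where an estimated count of 0 may be a failed estimate.

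**Figure D4:**
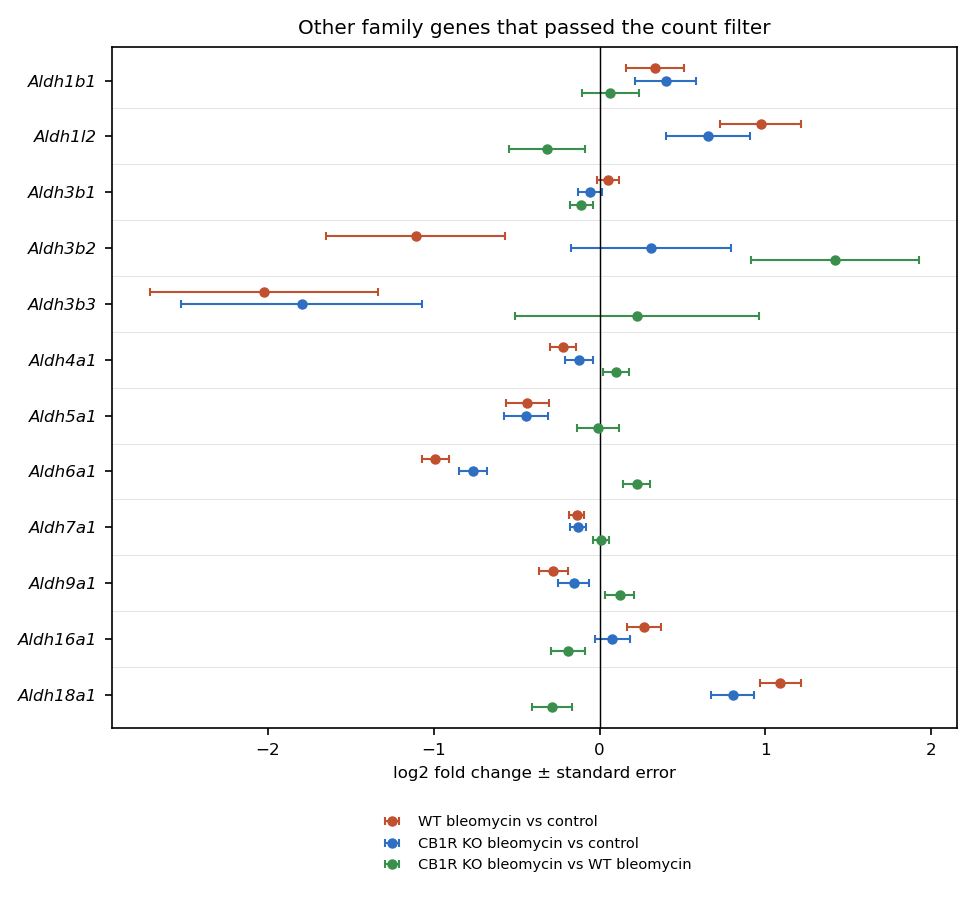
Points give the log2 fold change and whiskers the standard error of the 12 other family genes that passed the count filter, in the 3 comparisons. Aldh18a1 (1.09) and Aldh1l2 (0.97) lie highest in WT bleomycin against control, and Aldh3b3 (-2.02), Aldh3b2 (-1.11) and Aldh6a1 (-0.99) lie low. Aldh3b2, with at most 1.12 CPM in any library, lies at 1.42 in CB1R KO against WT bleomycin and was not called in either comparison.

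Genes that work next to the members were read from 4 further lists. Of 8 tested genes of the molybdenum cofactor and its other enzymes, on which aldehyde oxidases depend, 1 was called in WT bleomycin against control, beside 48.9% of all tested genes. This was Xdh, the xanthine dehydrogenase, which fell to between 154 and 258 CPM from between 254 and 463 CPM in control (log2 fold change -0.99 ± 0.17, adjusted p = 0.000276 in edgeR's test), with overlapping groups. Median log2 fold change of the list was -0.12. In CB1R KO bleomycin lungs against control Xdh fell by 0.87 ± 0.18 and Mocs1, which starts the synthesis of the cofactor, by 0.42 ± 0.11.

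Of 18 tested retinoid pathway genes 7 were called lower and 2 higher in WT bleomycin against control, or 9 called beside 48.9% of all tested genes, with a list median of -0.05. Those lower included Rxrg (-2.23 ± 0.60), a retinoid X receptor, Lrat (-1.94 ± 0.42), which stores retinol as esters, Adh7 (-1.13 ± 0.24), an alcohol dehydrogenase that oxidizes retinol, and Rbp4 (-0.66 ± 0.10), the carrier of retinol in blood. Stra6, the receptor for that carrier, rose by 1.70 ± 0.50. Stra6, Rxrg and Crabp1 were near the detection limit, with at most 1.80, 3.39 and 1.51 CPM in any library, and neither limma analysis called Stra6 in a comparison with control.

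Of the enzymes on either side of the ALDH1A step, Rdh10, which makes retinaldehyde from retinol, had a log2 fold change of 0.04 ± 0.12 in WT bleomycin against control and was not called. Dhrs3, which reduces retinaldehyde back to retinol, fell by 0.40 ± 0.13 (adjusted p = 0.0242 in edgeR's test). Cyp26b1, which breaks down retinoic acid, ranged from 3.93 to 31.6 CPM among control lungs alone and was not called (0.14 ± 0.60). Cyp26a1, of the same activity, had at most 0.357 CPM in any library and was not tested. No retinoid gene was called between CB1R KO and WT bleomycin by edgeR, 5 having an unadjusted p under 0.05. DESeq2 and both limma analyses called Rbp4, which had 11.8 to 14.5 CPM in KO lungs and 9.02 to 11.1 CPM in WT bleomycin lungs. In CB1R KO bleomycin against control Crabp1, a cellular retinoic acid carrier, rose by 1.86 ± 0.46, Stra6 by 1.68 ± 0.51 and Adh1 by 0.36 ± 0.13. Adh7 fell by 1.31 ± 0.26, the retinoic acid receptor gene Rarg by 0.41 ± 0.13 and Rxrb by 0.20 ± 0.07, of which limma called Adh7 only.

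**Figure D5:**
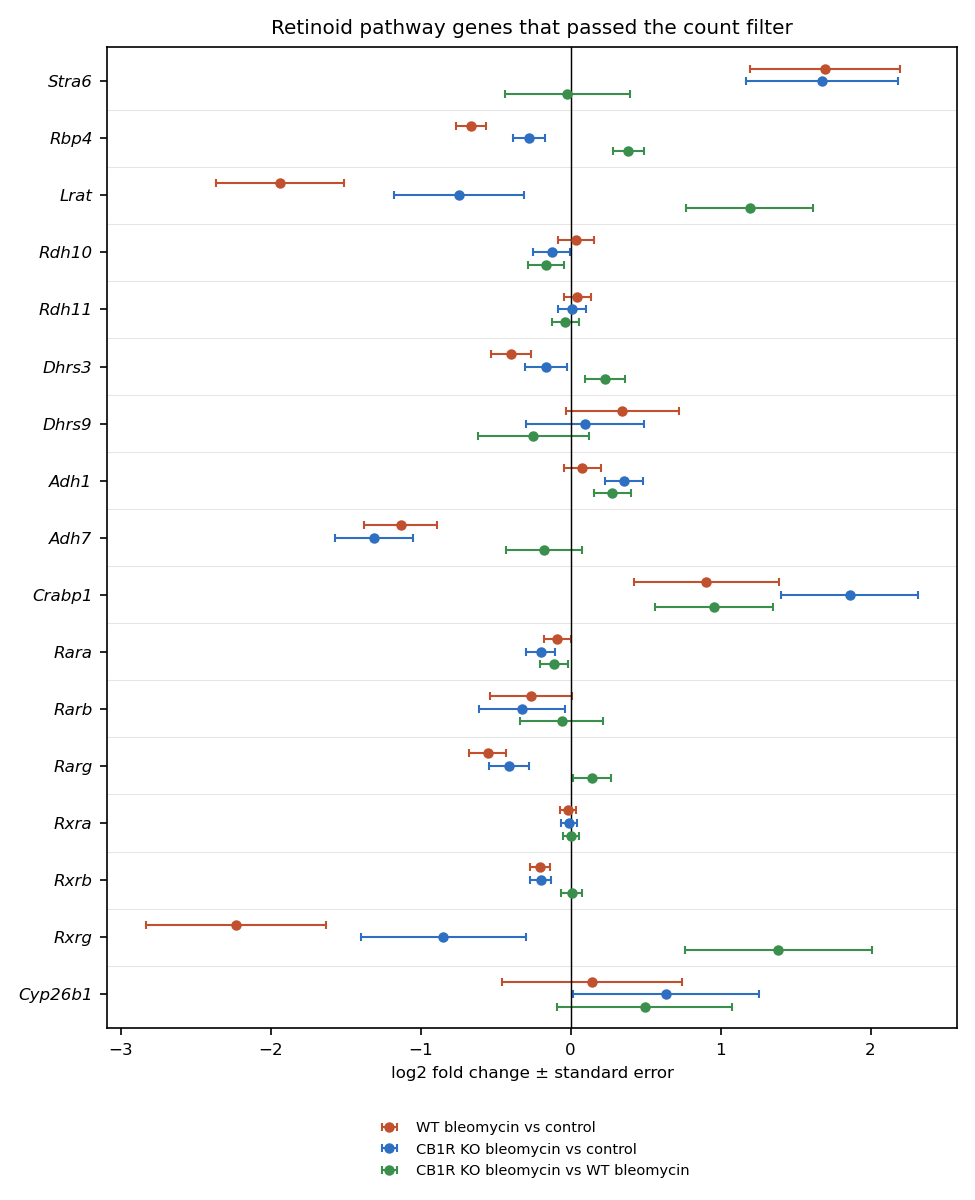
Points give the log2 fold change and whiskers the standard error of retinoid pathway genes that passed the count filter, in the 3 comparisons. Stra6 lies to the right in both comparisons with control (1.70 and 1.68), Rxrg (-2.23), Lrat (-1.94) and Adh7 (-1.13) lie to the left in WT bleomycin against control, and Rdh10 lies near 0.

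Folate one-carbon genes, which share a substrate with Aldh1l1 and Aldh1l2, had 5 of 11 tested members called higher and 1 lower in WT bleomycin against control, beside 48.9% called among all tested genes, with a list median of 0.31. Mthfd2, the mitochondrial methylenetetrahydrofolate dehydrogenase, rose to between 13.6 and 17.6 CPM from between 3.42 and 6.66 CPM in control (log2 fold change 1.58 ± 0.17, adjusted p = 5.67e-06 in edgeR's test). Tyms, the thymidylate synthase, rose by 0.70 ± 0.14 and Shmt2 by 0.40 ± 0.09, while Mthfd1, the cytosolic enzyme, fell by 0.40 ± 0.08. None of the 11 was called between CB1R KO and WT bleomycin by edgeR, DESeq2 or limma, 4 having an unadjusted p under 0.05 in edgeR. Against control, Mthfd2 rose by 1.21 ± 0.18 and Shmt2 by 0.31 ± 0.09 in CB1R KO bleomycin lungs, and Mthfd1l fell by 0.82 ± 0.25.

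Of 14 other tested enzymes of aldehydes and alcohols, 4 were called higher and 5 lower in WT bleomycin against control, beside 48.9% called among all tested genes, with a list median of 0.03. Akr1b8, an aldo-keto reductase, rose to between 48.9 and 72.7 CPM from between 16.1 and 21.5 CPM in control (log2 fold change 1.55 ± 0.13, adjusted p = 4.81e-07 in edgeR's test), Sgpl1, the sphingosine phosphate lyase, rose by 0.74 ± 0.06, Akr1a1 by 0.40 ± 0.08 and Akr1b10 by 0.27 ± 0.10. Cbr2, the lung carbonyl reductase, fell to between 838 and 1263 CPM from between 2348 and 4570 CPM in control (-1.90 ± 0.18, adjusted p = 1.77e-06). Cyp2e1, which oxidizes ethanol, fell by 1.40 ± 0.42, Akr1b7 by 1.04 ± 0.37 and Cat, the catalase that removes hydrogen peroxide, by 0.96 ± 0.07.

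Cat was the gene of these lists nearest to the threshold between CB1R KO and WT bleomycin (0.31 ± 0.07, adjusted p = 0.0527 in edgeR's test), with 196 to 230 CPM in KO and 158 to 188 CPM in WT bleomycin lungs. DESeq2 and both limma analyses called it. None of the 14 was called by edgeR, 3 having an unadjusted p under 0.05. None of the 8 molybdenum cofactor genes was called in that comparison by edgeR, DESeq2 or limma, 1 having an unadjusted p under 0.05 in edgeR. In CB1R KO bleomycin against control Akr1b8 rose by 1.20 ± 0.13, Sgpl1 by 0.64 ± 0.06 and Akr1a1 by 0.36 ± 0.08, while Cbr2 fell by 1.52 ± 0.20 and Cat by 0.65 ± 0.08.

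Genes whose profile over the 13 libraries was most like that of Aox3, by the root mean square difference of log2 CPM after the control mean of each gene was subtracted, were Aass (0.161), Bex4 (0.169), Mettl7a1 (0.207), Fmo1 (0.213) and Mturn (0.215). Aass acts in lysine breakdown and Fmo1 is a flavin monooxygenase that oxidizes drugs. Log2 fold changes of these 5 in WT bleomycin against control were between -1.77 and -1.58. For Aldh2 the nearest genes were Gpm6a (0.0903), Sox13 (0.110), Ptprb (0.111), Crim1 (0.114) and Unc45b (0.115), with log2 fold changes of -0.86 to -0.78 in that comparison. Ptprb is the receptor phosphatase of endothelial cells. The likeness is a description over libraries that share the same 3 groups.

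Sequencing depth was 14615904 to 16662580 estimated counts in 12 libraries and 53463884 in CB1R KO replicate 11. Cnr1, the gene of CB1R, had 2.47 to 5.63 CPM in the libraries labelled CB1R KO, 1.62 to 4.10 CPM in control and 3.46 to 6.97 CPM in WT bleomycin lungs. Counts per gene do not show which part of Cnr1 the reads covered, so they do not check the genotype, and the labels were followed. The titles of 2 WT bleomycin libraries share the number 4, one with the suffix B2, which is not explained. They were counted as separate samples, and whether both came from 1 mouse cannot be told from the labels. The word lung stands for a sample throughout, so the 5 WT bleomycin lungs may come from fewer mice. The tests measure the spread between these samples.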

How the data were processed

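Lung RNA of 13 samples was sequenced as paired-end poly(A) libraries. The authors quantified reads with Kallisto on the Ensembl release 105 mouse transcripts (the submitters' notes name GRCm39) and summed protein-coding transcripts per gene. They deposited estimated counts, of which 70.5% were not whole, and TPM. Among the TPM columns 1 matched no sample and was not used.

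Estimated counts were rounded, filtered with filterByExpr (15315 of 20270 genes kept), scaled by TMM and tested with edgeR 4.0.16 (R 4.3.3), all 3 groups in 1 quasi-likelihood fit with no covariates, with Benjamini-Hochberg adjustment at 0.05. Standard errors are the log2 fold change over the root of F, and 95% intervals use the t distribution of the fit. The tests were checked on simulated counts. Groups came from the titles and treatment labels. DESeq2 1.42.0, limma 3.58.1 on log2(TPM + 1) or log2(TPM + 0.1), other filters and scalings, fits of 2 groups, the spelling of titles and leaving out each library were alternatives. Shared 31-base words were counted in GENCODE vM21 protein-coding transcripts.

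The members and lists were chosen with earlier results of these data known. Named genes are the members, the called genes of the rest of the family, up to 4 called genes per direction of each other list, Rdh10, Dhrs3, Cyp26a1, Cyp26b1 and Cnr1, and the 5 genes nearest to Aox3 and to Aldh2. Rbp4 and Cat between the bleomycin groups were named after their values were seen. Some genes of the lists are counted but not reported here by name. Precision is set by the 4 or 5 samples per group and, for Aldh1a3 and Aldh3b3, by low counts.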

Additional observations from a re-analysis of the deposited data

Results flagged for a closer look

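Of the 30 sets of values that the 10 members gave in the 3 groups, 4 had 1 lung standing far from the rest by Dixon's criterion, which chance meets in about 1 in 20 sets. Aox3 in control replicate 3 had 182.7 CPM, below the other 3 control lungs at 228.0 to 233.1 CPM. Aldh1a7 was also lowest in control replicate 3, at 88.91 CPM beside 110.3 to 113.1 CPM. That library was the lowest control for Aldh1a1, Aldh1a3, Aldh2 and Aldh3a2 too, but the highest for Aldh1a2 and Aldh1l1, and in between for Aox1 and Aldh3a1. Values of 1 library are not independent across genes. Aox3 in CB1R KO bleomycin replicate 10 had 77.16 CPM, below the other KO lungs at 91.05 to 93.66 CPM. Aldh3a1 in WT bleomycin replicate 4-B2 had 17.86 CPM, above the other WT bleomycin lungs at 9.059 to 11.18 CPM.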

How the results depend on the processing

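The log2 fold changes of members that met the threshold kept their direction in all alternatives. Their groups did not overlap, so leaving out 1 library could hardly reverse a direction, and little is learned from this. Between CB1R KO and WT bleomycin the main analysis called 150 genes and 2 members. DESeq2 called 640 genes and 3 members, Aldh1a2, Aldh1a3 and Aox3. Limma on log2(TPM + 0.1) called 93 genes and 1 member, and limma on log2(TPM + 1) called 1 member. On the 2 groups alone edgeR called 88 genes. With the spelling of titles as a term edgeR called 41 genes and 0 members, and lower-case titles alone gave 6 genes and 0 members. Leaving out 1 library gave 1 (without CB1R KO replicate 9) to 653 genes (without CB1R KO replicate 10), with 3 without replicate 11 and 9 without replicate 8, and 0 to 3 members (3 without CB1R KO replicate 10). The cause was not tested. Of the 12 other family genes, 9 were called in WT bleomycin against control, 5 over lower-case titles and 6 (without control replicate 26) to 9 with 1 library left out. In CB1R KO bleomycin against control 3 were called, 5 by DESeq2 and 2 to 4 with 1 library left out. Between the bleomycin groups 0 were called, also with any 1 library left out. All tested genes called with 1 library left out numbered 6656 to 7753 in WT bleomycin and 4272 to 5449 in CB1R KO bleomycin against control. Aldh1a3 in WT bleomycin against control was 1.04 by limma on log2(TPM + 1) against 1.54, at group means of 1.43 and 4.06 TPM. Thinning CB1R KO replicate 11 to the depth of the other KO libraries, chosen after the data were seen, changed no call of a member. No paired analysis was possible because the groups share no replicate numbers. Genes of a few counts, such as Aox2 and Aox4, are below what this depth can compare.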
